A study of Mus musculus with 10 samples.

Results

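Interferon-stimulated genes were followed in mouse liver 40 h after partial hepatectomy, in animals with and without deletion of Arid1a in hepatocytes. The set holds 49 genes given by symbol: signalling and transcription factors of the interferon response, antiviral effectors, and the guanylate-binding and immunity-related GTPases. Of these, 48 had a row among the 23847 loci of the table. Ifi27 had none. RefSeq GRCm38.p6 gives Ifi27 as a synonym of Ifi27l1, whose row is reported apart from the 48. Arid1a codes for a subunit of SWI/SNF, a complex that moves nucleosomes. The control group (WT) carried the floxed Arid1a Fl/Fl alleles with no Cre, and the knockout group (KO) carried Arid1a Fl/Fl with Alb-cre. Alb-cre drives the recombinase from the promoter of albumin, a hepatocyte marker. Which liver cells lost the gene was not measured. Both groups had the floxed alleles, a C57/B6 and 129 mix as background, an age of postnatal day 90 and the hepatectomy, and each had 3 libraries from frozen liver. The 4 libraries from liver before hepatectomy, 2 of each genotype, were not analysed here, so no response to the surgery itself was computed.

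Cells make interferons when sensors such as RIG-I (Ddx58), MDA5 (Ifih1) or ZBP1 meet foreign or misplaced nucleic acid. Type I and type III interferons act through JAK kinases on a complex that includes STAT2 and IRF9 and binds the interferon-stimulated response element (ISRE) before many target genes. Type II interferon (interferon gamma) acts at a different element, the gamma-activated site (GAS), and the guanylate-binding proteins and immunity-related GTPases are classic targets. The products block viral translation, degrade viral RNA, trap budding virus, attack vacuoles of intracellular pathogens and load peptides for T cells. In liver, hepatocytes and resident macrophages both respond to interferon.

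Expression was given as FPKM, fragment counts divided by transcript length and by the mapped total of the library, so levels can be compared between genes. Summed FPKM ran from 409142 to 495209 per library. The absolute depth is unknown, and the relative depth read from the steps between low values ran from 0.834 (KO3) to 1.206 (WT3), with WT1 set to 1. Arid1a itself was 8.54 ± 0.121 FPKM (SD, n = 3) in WT and 5.38 ± 0.882 (SD, n = 3) in KO. Every KO library was below every WT library for Arid1a, at a limma Benjamini-Hochberg adjusted p of 0.207 and an exact two-sided permutation p of 0.1, the smallest that 3 against 3 libraries can give. In these bulk samples, fewer cells of a type and less RNA per cell cannot be told apart. The labels tie no library to its own mouse, so the p-values may measure technical spread only. Hepatocyte markers were abundant in all libraries (albumin up to 29437 FPKM).

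Promoter sequences of 6 of the genes hold letter patterns of the elements through which interferon signals act. All 6 shown hold a match, and binding was not measured. The sequences are the RefSeq GRCm38.p6 bases just before each start site, 150 per gene, read 5′ to 3′ on the gene's strand. Capitals mark matches to the ISRE core (GAAA, any 2 bases, GAAA) or to the GAS pattern TTCNNNGAA, and matches that overlap run together. Isg15 (chr4:156200819-156200968, minus strand) shows overlapping ISRE cores alone. Oas1a (chr5:120907526-120907675, minus strand), Bst2 (chr8:71537473-71537622, minus strand) and Gbp7 (chr3:142530186-142530335, plus strand) hold both patterns. Igtp (chr11:58199406-58199555, plus strand) and Irgm2 (chr11:58214827-58214976, plus strand) are neighbours whose stretches share a run of 38 bases.
Isg15: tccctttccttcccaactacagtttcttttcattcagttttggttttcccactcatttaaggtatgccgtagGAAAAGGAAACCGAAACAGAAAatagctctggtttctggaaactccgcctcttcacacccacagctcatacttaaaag
Oas1a: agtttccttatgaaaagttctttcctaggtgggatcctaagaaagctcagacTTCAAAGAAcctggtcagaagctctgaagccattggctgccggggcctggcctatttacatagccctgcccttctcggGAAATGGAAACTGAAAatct
Bst2: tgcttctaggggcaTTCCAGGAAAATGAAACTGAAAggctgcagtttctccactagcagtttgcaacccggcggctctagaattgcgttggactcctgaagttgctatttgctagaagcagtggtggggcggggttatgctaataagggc
Gbp7: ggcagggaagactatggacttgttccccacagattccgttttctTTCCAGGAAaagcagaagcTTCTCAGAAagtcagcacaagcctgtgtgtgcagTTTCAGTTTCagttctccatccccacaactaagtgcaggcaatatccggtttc
Igtp: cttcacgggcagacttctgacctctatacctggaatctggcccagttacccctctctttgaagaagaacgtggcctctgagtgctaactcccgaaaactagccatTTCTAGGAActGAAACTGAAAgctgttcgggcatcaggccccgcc
Irgm2: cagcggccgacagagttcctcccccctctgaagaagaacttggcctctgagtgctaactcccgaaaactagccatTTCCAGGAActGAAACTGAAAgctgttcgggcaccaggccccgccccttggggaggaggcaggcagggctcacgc

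In Isg15 the ISRE core matched 3 times, with first bases at -78, -72 and -66 from the start site, each match overlapping the next. Oas1a had its ISRE cores at -20 and -14 and a GAS match at -98. The Bst2 stretch carried a GAS match at -136 that runs into ISRE cores at -130 and -124. Gbp7 had its ISRE core on the opposite strand at -53 and GAS matches at -106 and -87. Igtp and Irgm2 had the same arrangement, a GAS match followed after 2 bases by an ISRE core.

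A RefSeq window from 250 bases before to 50 bases after the start was found for 37 of the 48 genes, and both strands were searched. The ISRE core was present in 20 of them (54.1%), against 3.99% of all 27025 genes with a window and 3.44% of the 32851 windows of the same length. GAS matched in 12 of them (32.4%), against 9.55% of genes and 8.3% of windows. Both patterns were present in Bst2, Eif2ak2, Gbp7, Ifitm3, Igtp, Irgm2 and Oas1a. A further 12 genes, among them Oasl1, Samd9l, Irf7 and Tap1, had neither set of letters in this window. Genes with and without the core covered much the same range of differences between genotypes. The median log2 difference, KO minus WT, was 0.48 (from -0.29 to 1.55) over the 20 genes with the core and 0.58 (from 0.00 to 1.70) over the 17 without it. KO libraries stood entirely above WT libraries for 6 of the 20 and 9 of the 17, and for 12.7% of all loci with a value above 0 in some library.

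**Figure D1:**
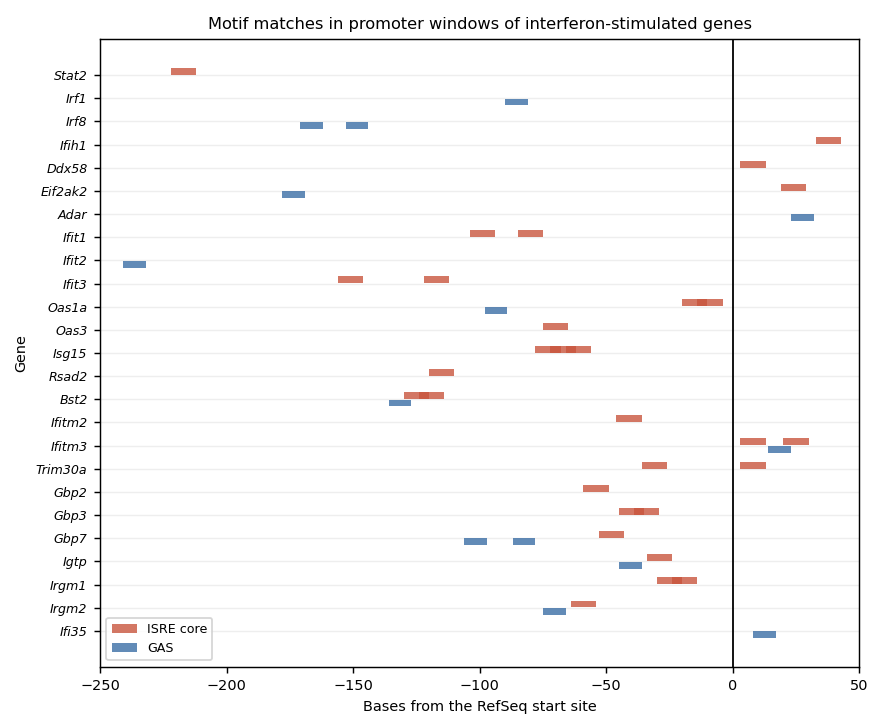
Matches to the ISRE core and the GAS pattern along the promoter windows, with distance from the RefSeq start site in bases on the x axis and 1 gene per line; genes with no match are not drawn. Most ISRE matches lie within the last 150 bases before the start, and 7 genes show both patterns.

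At 40 h, most of the 48 interferon-stimulated genes were at higher levels in the KO libraries, and none passed the test over the whole table. The 48 were chosen with earlier results of these data known. A further 35 tested interferon-stimulated genes, given below, had a median log2 difference of 0.21, against 0.15 for all tested genes. KO was compared with WT by limma on log2(FPKM + 1), with Benjamini-Hochberg adjustment over the 10956 loci with a mean of at least 1 FPKM. Of the 48 genes, 41 reached that level. Ifit2, Oas2, Oas3, Oasl2, Mx1, Cmpk2 and Ifi44 did not and have no p-value. An adjusted p under 0.05 was reached by 0 of 41, and by 13 of all 10956 loci (0.119%). The smallest adjusted p among the 41, from limma, was 0.164, shared by Oasl1 and Samd9l. At an unadjusted p under 0.05, 17 of 41 (41.5%) were higher in KO, where the share over all tested loci was 11.2%, and 1 of 41 was lower (Iigp1), where the share was 3.99%. Oas1a, Rsad2 and Xaf1 passed the level filter only through the KO libraries, with WT means under 1 FPKM, so their entry into the test favoured a higher KO level. Without these 3, an alternative chosen after seeing the data, 16 of 38 (42.1%) were higher at an unadjusted p under 0.05 and 14 of 38 (36.8%) stood entirely above WT.

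The median log2 difference was 0.54 over the 41 tested genes and 0.49 over all 48. All tested genes together had a median of 0.15, so the 41 lay 0.39 above it. The difference was above 0 for 46 of 48 (95.8%), against 63.5% of all loci with a value above 0 somewhere, and for 39 of the 41 tested, against 69.7% of tested loci. Every KO library exceeded every WT library for 18 of 48 (37.5%), against 12.7% of those loci, and for 15 of the 41 tested (36.6%), against 16.7% of tested loci. The reverse held for Iigp1 alone (5.18% of those loci and 5.44% of tested loci). After median-of-ratios rescaling, which brings the median of all tested genes to 0.01, 12 of 41 (29.3%) were higher at an unadjusted p under 0.05 (5.36% of tested loci). On that scale 12 stood entirely above WT (7.87% of tested loci) and 37 of 41 had a difference above 0. Dtx3l (-0.14) and Irf8 (-0.09) joined Iigp1 and Ifitm2 below 0 on that scale. On the lower side, 1 of 41 passed an unadjusted p under 0.05 (6.75% of tested loci) and 1 stood entirely below WT (9.9%), both times Iigp1. Rescaling also turned the split of all loci with an unadjusted p under 0.05 from 1231 higher and 437 lower to 587 higher and 740 lower.

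**Figure D2:**
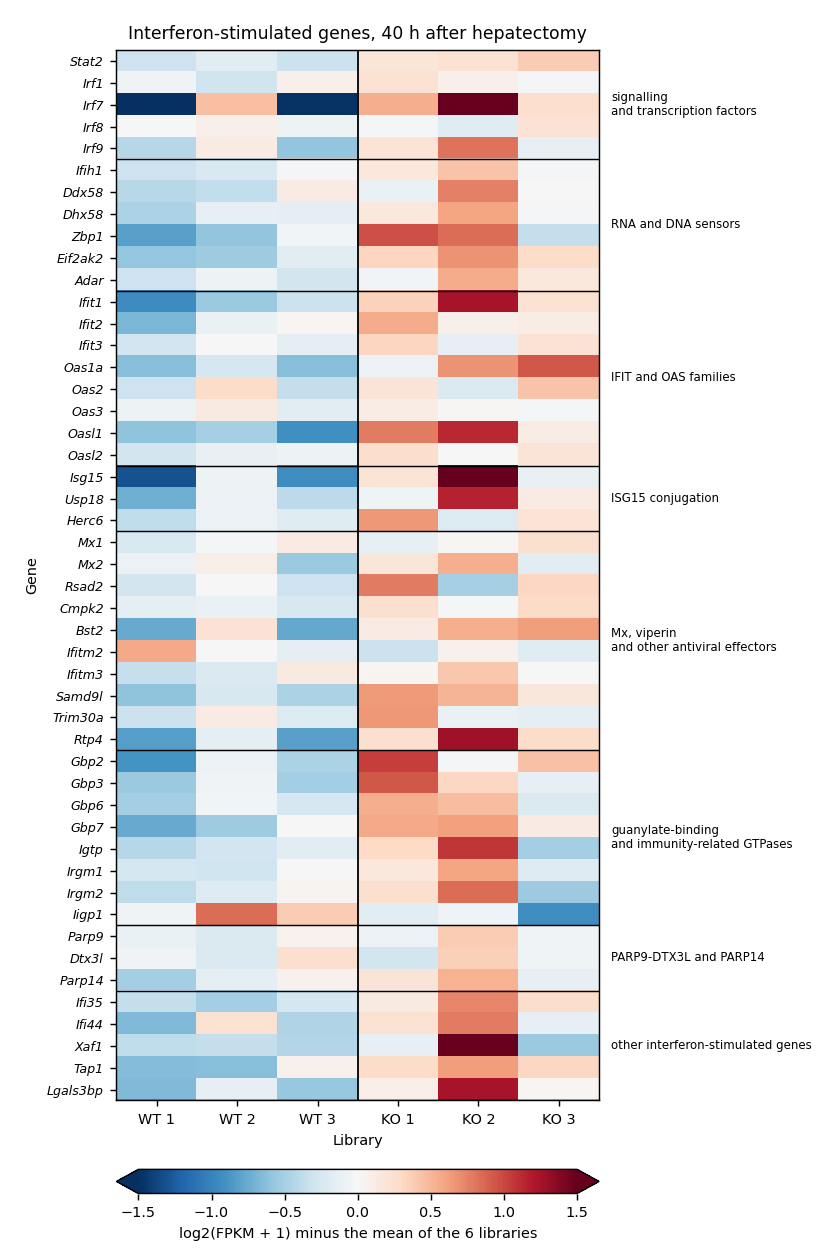
Level of each of the 48 genes in each library as log2(FPKM + 1) minus the gene's mean over the 6 libraries, on a colour scale from -1.5 to 1.5, with genes grouped by role. The KO columns are mostly above the gene means, with KO2 the highest of the 6 libraries for 26 genes, and Iigp1 and Ifitm2 run the other way.

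**Figure D3:**
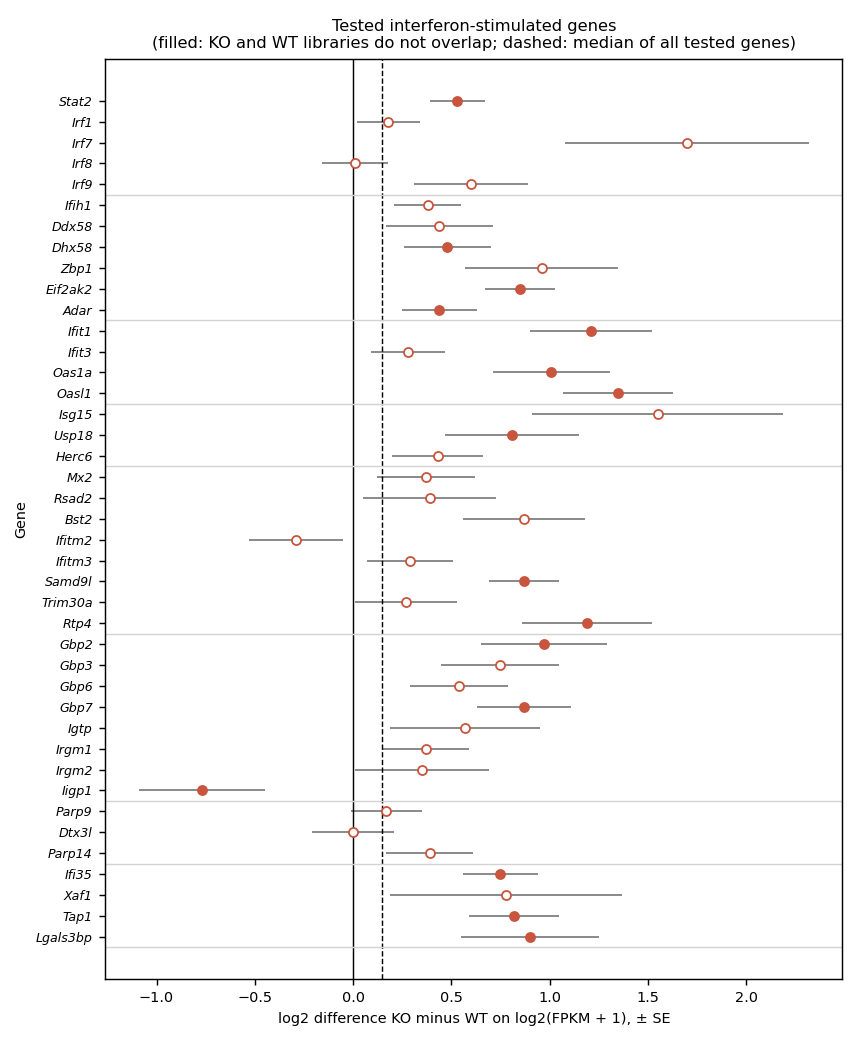
Log2 difference KO minus WT on log2(FPKM + 1), with its SE from limma, for the 41 tested genes; filled points mark genes whose KO and WT libraries do not overlap and the dashed line is the median of all tested genes, 0.15. The points range from -0.77 (Iigp1) to 1.70 (Irf7), and 37 of 41 lie right of the dashed line.

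Among the 5 transcription factors, Stat2 alone was higher in every KO library than in any WT library (16.7% of all tested loci). Stat2 and Irf7 were higher at an unadjusted p under 0.05 (11.2% of all tested loci). Stat2 (chr10:128270576-128292849), a subunit of the interferon-activated complex, was 12.1, 13.5 and 12 FPKM in WT1 to WT3 and 17.4, 18.0 and 20.1 in KO1 to KO3. The groups did not overlap, at 12.5 ± 0.806 against 18.5 ± 1.45 FPKM (SD, n = 3 each), a ratio of 1.48. Its log2 difference was 0.53 (SE 0.14) with a limma adjusted p of 0.212. Irf7, the factor that amplifies interferon gene expression, had the largest log2 difference of the 41 at 1.70 (SE 0.62, limma adjusted p 0.302). Its levels were 2.04, 10.9 and 2.11 FPKM in WT against 11.7, 28.1 and 9.33 in KO, so WT2 lay above KO3 and the groups overlapped. Irf7 spread widely within both groups, with WT2 far above the other WT libraries and KO2 far above the other KO libraries. Irf9, the DNA-binding partner of STAT2, was 6.02, 9.28 and 5.29 FPKM in WT against 9.94, 15.6 and 7.70 in KO, again highest in WT2 within WT and in KO2 within KO. Irf1, a target of interferon gamma, and Irf8, a factor of myeloid cells, overlapped between groups. They ran from 5.72 to 8.70 FPKM and from 1.38 to 2.14 FPKM over the 6 libraries.

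The sensors and RNA-handling enzymes had a median log2 difference of 0.46, against 0.15 for all tested genes, and 3 of 6 stood entirely above WT (16.7% of tested loci). Eif2ak2 (chr17:78852550-78882572) encodes PKR, the kinase that shuts down translation on binding double-stranded RNA. It was 3.75, 3.92 and 5.41 FPKM in WT against 7.94, 10.4 and 7.60 in KO, which is 4.36 ± 0.912 against 8.65 ± 1.53 (SD, n = 3 each). The KO mean was 1.98 times the WT mean, with a log2 difference of 0.85 (SE 0.18) and a limma adjusted p of 0.174. Dhx58, a regulator of the RIG-I pathway, and Adar, which edits adenosines in double-stranded RNA, were the others without overlap. Dhx58 reached 0.841 to 1.34 FPKM in WT against 1.49 to 2.84 in KO, and Adar 3.03 to 3.74 and 3.85 to 6.37. Zbp1, a sensor of Z-form nucleic acid, was 3.96, 4.75 and 7.48 FPKM in WT against 16, 14.5 and 5.78 in KO. KO1 and KO2 were therefore above all WT libraries for Zbp1, while KO3 lay inside the WT range. Ifih1 was level at 7.17 FPKM in WT3 and KO3, the highest WT and the lowest KO library, and Ddx58 ran from 3.94 to 6.19 in WT and 5.17 to 10.1 in KO.

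The IFIT and OAS families were low in all libraries and held some of the largest ratios, with 5 of 8 genes entirely above WT (12.7% of all loci above 0 in some library). Oasl1 (chr5:114923240-114937911), an OAS-like protein that restrains Irf7 translation, was 1.15, 1.31 and 0.726 FPKM in WT against 4.59, 6.18 and 2.54 in KO. The means were 1.06 ± 0.301 and 4.44 ± 1.82 FPKM (SD, n = 3 each), a ratio of 4.18, and the groups did not overlap. Its log2 difference was 1.35 (SE 0.28), with a limma adjusted p of 0.164. Oas1a (chr5:120896257-120907525), a synthetase of the oligoadenylates that activate RNase L, was 0.368, 0.789 and 0.370 FPKM in WT against 0.994, 2.40 and 3.06 in KO. This was 0.509 ± 0.242 against 2.15 ± 1.05 FPKM (SD, n = 3 each), with a log2 difference of 1.01 (SE 0.30) and a limma adjusted p of 0.244. Its WT mean was under the level filter, which it passed only through KO, so this p is no support for a difference. Oas1a was highest in KO3, whereas Oasl1 was lowest of the KO libraries there. Ifit1 (chr19:34640889-34650009), which binds viral RNA ends, was 0.854, 1.42 and 1.85 FPKM in WT against 3.52, 7.38 and 3.16 in KO. Its means were 1.38 ± 0.501 and 4.69 ± 2.34 (SD, n = 3 each), with no overlap, a log2 difference of 1.21 (SE 0.31) and a limma adjusted p of 0.208.

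The rest of these families sat close to 1 FPKM or below it. Ifit3 was 0.962 to 1.40 FPKM in WT against 1.20 to 1.98 in KO, and overlapped. Ifit2 (0.189 to 0.959 against 1.03 to 1.83 FPKM) and Oasl2 (0.483 to 0.700 against 0.792 to 1.14 FPKM) did not overlap between WT and KO, at levels too low to be tested. Oas2 and Oas3 overlapped and never exceeded 1.07 FPKM. Members of the Ifit and Oas families are related in sequence, as are those of the Gbp, Irgm, Ifitm, Mx and Trim30 families. How alike their transcripts are was not measured, so the division of reads among them is uncertain.

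Of the ISG15 conjugation genes, Isg15 and Usp18 were highest in KO2 by a wide margin. Isg15 (chr4:156199424-156200818), a ubiquitin-like modifier, was 4.81, 12.6 and 6.51 FPKM in WT against 15.5, 66.5 and 12.3 in KO. KO2 was far above the other KO libraries, and KO3 lay just under WT2, so the groups overlapped. The log2 difference of Isg15 was 1.55 (SE 0.64, limma adjusted p 0.325) with all libraries and 0.82 without KO2. Usp18, the protease that removes ISG15, was 2.03, 3.72 and 2.81 FPKM in WT against 3.8, 10.2 and 4.47 in KO, with no overlap. Its log2 difference was 0.81 with all libraries and 0.43 without KO2. Herc6, the mouse ISG15 ligase, was 2.70 to 3.52 FPKM in WT against 6.55, 3.17 and 4.54 in KO, with KO2 the lowest of the KO libraries.

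Among the remaining 10 antiviral effectors, Samd9l, Rtp4 and the untested Cmpk2 stood entirely above WT. These 3 of 10 compare with 12.7% of all loci above 0 in some library, and the 2 of 8 tested with 16.7% of tested loci. Samd9l (chr6:3372258-3399571), a restriction factor that also limits cell growth, was 1.73, 2.53 and 2.0 FPKM in WT against 5.45, 4.90 and 3.68 in KO. The means were 2.09 ± 0.411 and 4.68 ± 0.903 (SD, n = 3 each), a ratio of 2.24, with a log2 difference of 0.87 (SE 0.18) and a limma adjusted p of 0.164. Rtp4 (chr16:23609919-23614222), a receptor-transporting protein, was 1.94, 3.72 and 1.98 FPKM in WT against 5.19, 11.6 and 5.35 in KO. KO2 was again the highest library for Rtp4, with means of 2.55 ± 1.02 and 7.37 ± 3.63 (SD, n = 3 each), and a log2 difference of 1.19 (SE 0.33) and a limma adjusted p of 0.228. Bst2 (chr8:71534262-71537437) encodes tetherin, which holds budding virus at the cell surface. It was 71.5, 142 and 71.2 FPKM in WT against 133, 178 and 189 in KO, so WT2 reached past KO1. The Bst2 means were 94.9 ± 40.9 and 167 ± 29.7 (SD, n = 3 each), with a log2 difference of 0.87 (SE 0.31) and a limma adjusted p of 0.299.

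The most abundant genes of the set, Ifitm3 and Ifitm2, did not share a direction. Both encode small membrane proteins that block viral entry. Ifitm3 (chr7:141009590-141010744) was 367, 400 and 513 FPKM in WT against 477, 618 and 466 in KO, with a log2 difference of 0.29 (SE 0.22, limma adjusted p 0.541). Ifitm2 (chr7:140954839-140955961) was 372, 248 and 228 FPKM in WT against 200, 261 and 220 in KO, with a log2 difference of -0.29 (SE 0.24, limma adjusted p 0.578). The groups overlapped for both. The log2 difference of Ifitm2 was -0.07 without WT1, and that of Ifitm3 was 0.16 without KO2 and 0.19 without WT1. Mx2 ran from 1.67 to 3.19 FPKM in WT against 2.51 to 4.77 in KO, and Trim30a from 1.0 to 1.71 and 1.26 to 2.91. Rsad2 (viperin, which makes a chain-terminating nucleotide) was 0.573 to 0.948 FPKM in WT against 2.35, 0.384 and 1.42 in KO. KO2, the highest KO library for most of these genes, was the lowest of all 6 for Rsad2. Cmpk2, the neighbour of Rsad2, was 0.442 to 0.593 FPKM in WT against 0.663 to 1.07 in KO with no overlap, and Mx1 stayed between 0.071 and 0.489.

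Among the guanylate-binding proteins and immunity-related GTPases, Gbp2 and Gbp7 stood entirely above WT and Iigp1 entirely below. These 2 of 8 and 1 of 8 genes compare with 16.7% and 5.44% of all tested loci, and none of the 8 was called. Gbp7 (chr3:142530338-142550083) was 1.73, 2.19 and 3.61 FPKM in WT against 5.84, 6.11 and 4.02 in KO. Its means were 2.51 ± 0.978 and 5.33 ± 1.14 (SD, n = 3 each), with a log2 difference of 0.87 (SE 0.24) and a limma adjusted p of 0.230. Gbp2 (chr3:142620663-142638008) was 0.747, 2.05 and 1.34 FPKM in WT against 5.69, 2.20 and 3.39 in KO, with a log2 difference of 0.97 (SE 0.32, limma adjusted p 0.281). Neither gene overlapped between the groups, although KO2 was only just above WT2 for Gbp2, with means of 1.38 ± 0.652 and 3.76 ± 1.78 (SD, n = 3 each). Gbp3 and Gbp6 ran from 1.07 to 1.92 and 1.98 to 3.14 FPKM in WT, and from 1.79 to 4.81 and 2.67 to 5.23 in KO. Gbp2, Gbp3 and Gbp6 were all highest in KO1, not KO2.

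Igtp, Irgm1 and Irgm2, GTPases that act at vacuoles of intracellular pathogens, were highest in KO2 and overlapped with WT through KO3. Igtp was 8.97, 10 and 11 FPKM in WT against 15.5, 27.1 and 8.37 in KO. Its log2 difference of 0.57 became 0.18 without KO2, and that of Irgm2 went from 0.35 to 0.02. Irgm1 ran from 9.19 to 11.6 FPKM in WT against 9.96 to 18.0 in KO. Iigp1, an effector GTPase of the same family, was the only gene of the 48 with every KO library below every WT library. It was 77.5, 145 and 105 FPKM in WT against 71.9, 77.3 and 42.0 in KO, so WT1 and KO2 were nearly level. The means were 109 ± 33.8 and 63.7 ± 19.0 (SD, n = 3 each), a ratio of 0.584, with a log2 difference of -0.77 (SE 0.32) and a limma adjusted p of 0.327. Without KO3 the difference was -0.50. Iigp1 was also the most abundant of these GTPases in every library.

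Parp9 and Dtx3l, which form an ADP-ribosylation and ubiquitin ligase complex, had small differences. Dtx3l ran from 10 to 14.2 FPKM in WT against 9.55 to 15.3 in KO, with a log2 difference of 0.00. Parp9 ran from 9.68 to 11.9 and 10.7 to 15.2 FPKM. Their loci overlap by 558 bases, and no source used here says if strand was kept, so reads there cannot be assigned to either with certainty. Parp14 ran from 3.10 to 5.13 FPKM in WT against 4.39 to 7.37 in KO.

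Among the 5 other genes, Tap1, Ifi35 and Lgals3bp were higher in every KO library than in any WT library. These 3 of 5 compare with 12.7% of all loci above 0 in some library. Tap1 (chr17:34187556-34197225), a subunit of the peptide transporter that supplies MHC class I, was 3.38, 3.44 and 6.20 FPKM in WT against 7.36, 9.68 and 7.57 in KO. Its means were 4.34 ± 1.61 and 8.20 ± 1.28 (SD, n = 3 each), with a log2 difference of 0.82 (SE 0.23) and a limma adjusted p of 0.234. Ifi35 (chr11:101448412-101458701) was 6.81, 6.0 and 7.36 FPKM in WT against 9.96, 15.6 and 11 in KO. The means of Ifi35 were 6.72 ± 0.684 and 12.2 ± 3.01 (SD, n = 3 each), with a log2 difference of 0.75 (SE 0.19) and a limma adjusted p of 0.208. Lgals3bp, a secreted glycoprotein, was 20.1, 29.6 and 21.5 FPKM in WT against 34.7, 77.4 and 33.1 in KO, without overlap. Its log2 difference of 0.90 became 0.51 without KO2. Xaf1, a regulator of apoptosis, was 0.322 to 0.401 FPKM in WT against 0.648, 5.43 and 0.222 in KO, so its difference of 0.78 rested on KO2 and became 0.05 without it. Ifi44 ran from 0.0982 to 1.04 FPKM in WT against 0.588 to 1.97 in KO. Ifi27l1, outside the 48, was 33.8, 79.1 and 38.6 FPKM in WT against 53.9, 63.3 and 45.1 in KO, and overlapped.

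**Figure D4:**
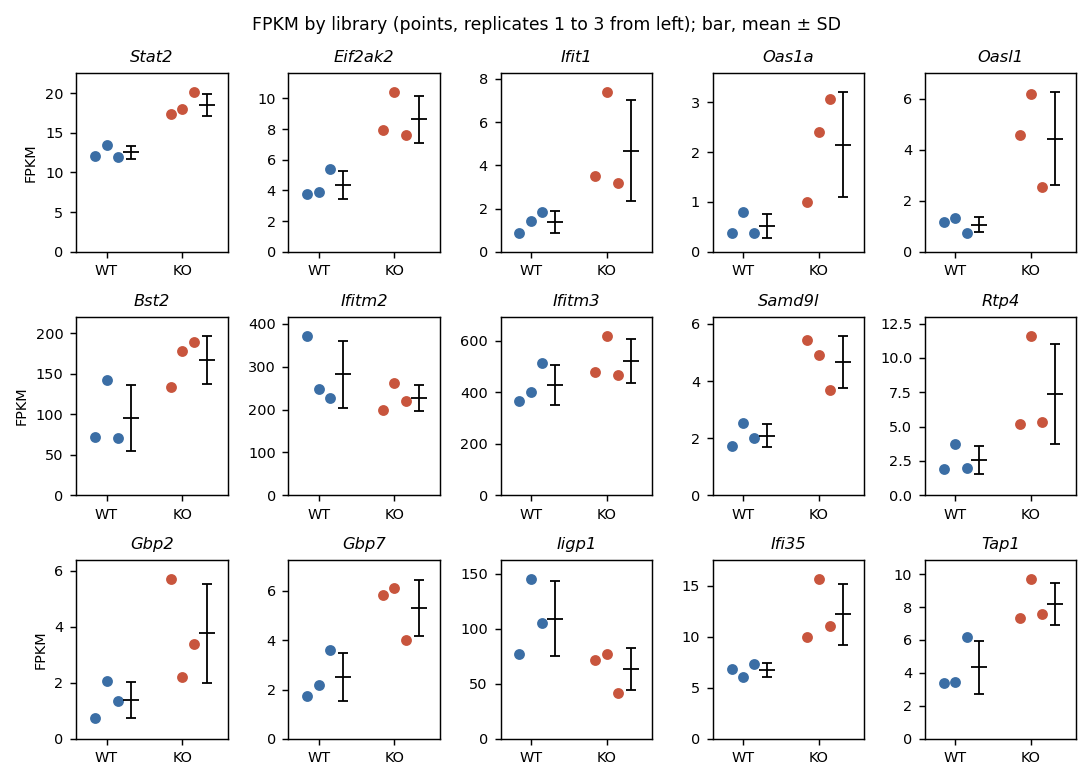
FPKM by library for the 15 genes with the smallest p or the highest level, each axis starting at 0; points are replicates 1 to 3 from left and the bar is the mean ± SD of 3 libraries. Oasl1, Samd9l and Eif2ak2 show separate groups, Bst2 shows WT2 above KO1, and Iigp1 is lower in KO.

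The KO libraries were not alike in these genes. KO2 was the highest KO library for 28 of 48 genes (58.3%), KO1 for 13 and KO3 for 7. Of the 41 tested genes, 65.9% were highest in KO2 among the KO libraries, compared with 42.7% of all tested loci. In WT, 31 of 48 genes were lowest in WT1. The median deviation from the gene mean over the 41 genes was -0.42, -0.15 and -0.21 in WT1 to WT3 and 0.20, 0.56 and 0.01 in KO1 to KO3 on the log2(FPKM + 1) scale. After median-of-ratios rescaling the values were -0.32, -0.07 and -0.19 in WT libraries against 0.15, 0.46 and -0.04 in KO libraries. KO3 was therefore only slightly above the WT libraries, and KO2 was furthest from them. Without KO2, 14 of 40 tested genes (35%) were higher at an unadjusted p under 0.05 (13.3% of all tested loci), and 18 of 40 (45%) stood entirely above WT (27.8%).

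KO2 also stood apart in other ways. A list of 10 cell cycle genes summed to 18.3, 8.15 and 46.6 FPKM in WT against 309, 13.8 and 509 in KO, so KO2 lay in the WT range while KO1 and KO3 were far above it. The 9 hepatocyte markers with a row summed to 31673 FPKM in KO2, the lowest of the 6 libraries, against 33958 to 41585 in the others. Albumin led that sum, at 16226 FPKM in KO2 against 20933 to 29437 in the others. Apoa1 went the other way and was highest in KO2, at 10615 FPKM against 4940 to 6402. The median deviation of the 9 markers was -0.53 in KO2 and from -0.05 to 0.16 in the others. Leaving KO2 out raised the loci called over the whole table from 13 to 242, none of them among the interferon-stimulated genes. The part of these differences in the levels of the interferon-stimulated genes was not tested.

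No gene of the marker lists for immune and other liver cells was called, and the summed lists overlapped between WT and KO. The 13 Kupffer cell and macrophage markers summed to 163, 203 and 132 FPKM in WT against 240, 191 and 146 in KO, and 0 of 13 was called. Cd5l, C1qc and C1qb led that list. The median log2 difference of the 13 was 0.15, the same as for all tested genes. Marco, a scavenger receptor, had the largest ratio of these 13, at 9.84, 8.99 and 5.11 FPKM in WT against 16.9, 27.6 and 11.8 in KO. Marco was highest in KO2, with a ratio of means of 2.35 and a limma adjusted p of 0.264. It was the 1 of 13 that stood entirely above WT, against 16.7% of all tested loci. T and NK cell markers were near the floor, with 12 genes summing to between 0.662 and 2.44 FPKM and no single value above 0.602. The 8 B and plasma cell markers summed to between 0.908 and 1.78 FPKM, and Pax5, which defines the B lineage, was listed at 0 in all 6 libraries. The dendritic cell list is carried by Bst2, itself one of the interferon-stimulated genes. The 9 neutrophil markers, led by S100a8 and S100a9, summed to 37, 12.8 and 12 FPKM in WT against 17, 30 and 14.6 in KO. Sinusoidal endothelial markers summed to between 63.2 and 94.4 FPKM, stellate cell markers to between 107 and 170, and cholangiocyte markers to between 12.1 and 29. Cdh5, 1 of 10 endothelial markers, and Reln, 1 of 9 stellate cell markers, stood entirely above WT. Reln had means of 9.63 in WT and 17.7 in KO (limma adjusted p 0.179). Ecm1, 1 of the same 9, stood entirely below WT (5.44% of all tested loci). So did Sox9, 1 of 6 cholangiocyte markers and too low to be tested (5.18% of all loci above 0 in some library). The part of these cell types in the result was not tested.

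**Figure D5:**
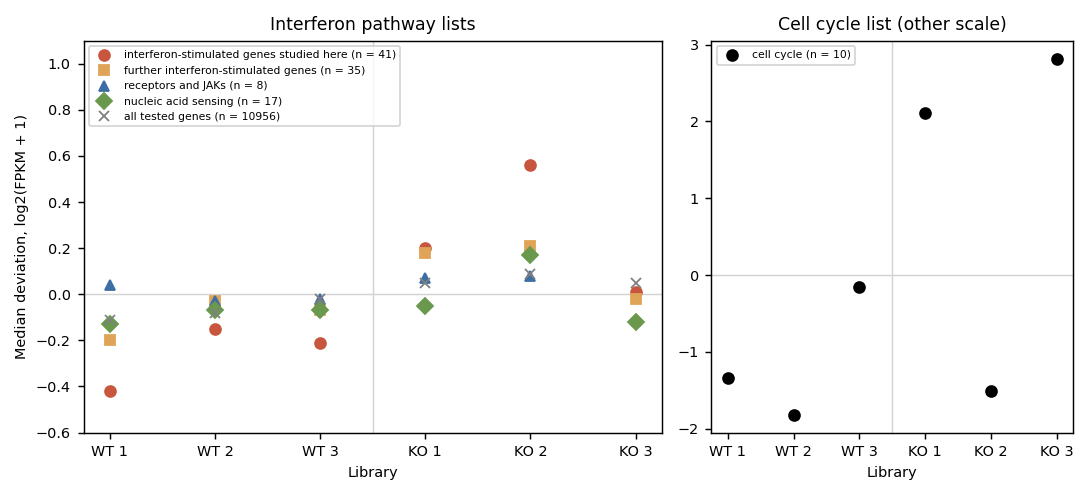
Median deviation from the gene mean in each library, on log2(FPKM + 1), for the 41 tested interferon-stimulated genes and for further lists of the pathway (left), and for 10 cell cycle genes on a scale of their own (right). The 41 interferon-stimulated genes run from -0.42 in WT1 to 0.56 in KO2. The 35 further interferon-stimulated genes run only from -0.20 in WT1 to 0.21 in KO2. Receptors and nucleic acid sensing genes stay within 0.2 of 0, and KO2 is low in the cell cycle list.

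Further genes of the pathway were taken from lists of ligands, receptors, upstream sensors, negative regulators and more interferon-stimulated genes. No gene of these lists was called by limma at an adjusted p under 0.05. Of the interferon genes, 19 had a row and 16 were listed at 0 in all 6 libraries. Ifnk, the epithelial type I interferon, was the most abundant at 0, 0.959 and 1.31 FPKM in WT against 0.398, 0.838 and 0.517 in KO. Ifng was above 0 in WT2 alone, at 0.147 FPKM.

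The receptors and kinases lay close to all tested genes, with a median log2 difference over 8 tested genes of 0.04, against 0.15 for all tested genes, and 0 of 8 higher at an unadjusted p under 0.05. Ifnar1 and Ifnar2, the type I receptor chains, had log2 differences of 0.09 (limma adjusted p 0.782) and 0.17 (0.689). Jak1, Jak2 and Tyk2 lay at 0.07, 0.19 and 0.02, Ifngr2 at -0.17 and Il10rb at 0.00. Ifngr1, the ligand-binding chain for interferon gamma, stood entirely below WT in KO, at 9.52, 13.1 and 9.29 FPKM in WT against 8.92, 7.90 and 5.54 in KO (limma adjusted p 0.349).

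Nucleic acid sensing genes had a median of 0.07 over 17 tested, and 2 were higher at an unadjusted p under 0.05, a share close to the 11.2% of all tested loci. Trex1, the exonuclease that clears cytosolic DNA, was 2.38, 2.55 and 2.31 FPKM in WT against 3.15, 8.50 and 4.34 in KO. The nucleotide-depleting Samhd1 had means of 3.54 ± 0.419 and 5.02 ± 0.705 FPKM in WT and KO (SD, n = 3 each). Negative regulators had a median of 0.09 over 15 tested, with Pias4 (0.43, limma adjusted p 0.302), Ptpn6 (0.46, 0.325) and Ptpn1 (-0.38, 0.333) having the smallest p. Of these 15, 6 stood entirely above WT and 1 entirely below, against 16.7% and 5.44% of all tested loci. Of the 10 class I antigen processing genes, Psme2, Psmb9 and Psmb8 were higher at an unadjusted p under 0.05 (11.2% of all tested loci), with limma adjusted p-values of 0.323, 0.325 and 0.326.

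A further 57 loci of interferon-stimulated genes outside the 48 held 35 tested ones, with a median log2 difference of 0.21, which is 0.07 above all tested genes. Of these 35, 5 were higher and 0 lower at an unadjusted p under 0.05, where 11.2% and 3.99% of all tested loci were. Ly6a, the stem cell antigen Sca-1, was 9.03, 8.34 and 6.54 FPKM in WT against 16.5, 18.6 and 27.6 in KO, with a log2 difference of 1.26 (SE 0.23) and a limma adjusted p of 0.132. Mov10, an RNA helicase, was 5.57, 5.43 and 7.55 FPKM in WT against 10.1, 11.5 and 9.53 in KO. Tdrd7, which limits viral replication, was 5.54, 6.72 and 6.59 FPKM in WT against 10.1, 10.4 and 8.28 in KO. Ly6a, Mov10 and Tdrd7, named for the smallest p of the list, had no overlap between WT and KO libraries. Of all 35, 7 stood entirely above WT and 1 entirely below, against 16.7% and 5.44% of all tested loci.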

How the data were processed

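Liver RNA from 6 libraries (3 WT, 3 KO) was analysed. The authors deposited FPKM per locus, per the file headers. The table also holds 312 loci marked LOWDATA in place of a number, which were left out. The submitters' processing notes name TopHat, edgeR, mm9 and mm10 without roles, and positions are given on mm10, counted from 1. Values at the floor of 0.001 FPKM were set to 0.

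Values were tested as log2(FPKM + 1), which understates differences of low genes. Loci with a mean of at least 1 FPKM (10956) entered limma 3.58.1 (R 4.3.3; eBayes with a mean-variance trend, genotype alone, two-sided), with Benjamini-Hochberg adjustment over all of them and a call at an adjusted p under 0.05. The fit was first run on simulated data, and the share of simulated shifts that it called is not reported here. Arid1a also had an exact permutation test over the 20 assignments. FPKM depends on the library total, so a shift in abundant transcripts moves all other genes.

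The members and lists were chosen with earlier results of these data known. Full statistics are given for the tested members with the 12 smallest p-values and the 4 most abundant, and other members by level or range. Irf7, Isg15, Usp18, Igtp, Irgm2, Lgals3bp, Xaf1, Dtx3l and the markers Marco, Apoa1, Cdh5, Reln, Ecm1 and Sox9 got further values after theirs were seen. From each pathway list up to 3 genes with the smallest p and every receptor or JAK gene tested are named, and Ifnk, Ifng and Ifi27l1 besides. A further pathway gene is not reported here. Alternatives were a pseudocount of 0.1, no level filter, median-of-ratios and quantile scaling, the replicate number as a block, and leaving out each library. Promoter windows came from RefSeq GRCm38.p6, matched by symbol.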

Additional observations from a re-analysis of the deposited data

How the results depend on the processing

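No interferon-stimulated gene was called by limma in the original or any of the 11 other settings. The smallest Benjamini-Hochberg adjusted p was 0.0518 with the replicate block and 0.0956 without KO2. Loci called over the whole table, 13 originally, were 6 with no level filter, 47 with the replicate block and 0 to 242 with 1 library left out (0 without WT1, 2 without WT2, 3 without WT3, 2 without KO3, 242 without KO2). Deviations of same-numbered libraries correlated at -0.08, 0.16 and 0.16, too few values to tell if the replicate numbers pair the libraries. KO2 was the best match of WT2, while the best matches of WT1 and WT3 were KO2 and KO1. Genes of the set that were higher with KO and an unadjusted p under 0.05, 17 originally, were 10 to 22 with 1 library left out. The 10 were without WT1 (23.8%, against 5.99% of all tested loci) and the 22 without KO3 (56.4%, against 7.7%). Those lower, 1 originally, were 0 with no filter, 2 with quantile scaling and 0 to 1 with 1 library left out. Genes with every KO library above WT, 15 originally, were 9 with quantile scaling (22%, against 7.5% of all tested loci). With 1 library left out they were 16 to 27, where fewer libraries have to be ordered and the share of all tested loci rises too. They were 16 without WT1 (38.1%, against 20.7% of all tested loci) and 16 without KO1 (40%, against 25.2%). They were 24 without WT2 (57.1%, against 22.4%), 23 without WT3 (56.1%, against 28.5%) and 27 without KO3 (69.2%, against 23.1%). Those entirely below, 1 originally, were 2 with quantile scaling and 1 to 2 with 1 library left out. The median log2 difference relative to all tested genes, 0.39 originally, ran from 0.32 (without KO2) to 0.62 (without KO3) and kept its sign in every setting. For the 15 genes with full statistics, all 164 values under other settings kept their direction and stayed above an adjusted p of 0.05. Most of these genes were chosen for a small p in the same data. Where KO and WT libraries do not overlap, leaving out 1 library cannot turn the direction. The kept direction was therefore largely fixed by the choice of genes. Other members did change sign with 1 library left out. Dtx3l, at 0.00 with all libraries, ran from -0.17 (without KO2) to 0.14 (without KO1). Irf8, at 0.01 with all libraries, ran from -0.10 (without KO3) to 0.10 (without KO2). The cause of these shifts was not tested. With 3 libraries a group and unknown depth, genes near 1 FPKM are the least certain.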
